A study of Mus musculus with 10 samples.

Results

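Genes of immature, migrating granule neurons were examined in mouse medulloblastoma (MB) and developing cerebellum by RNA sequencing. The 9 members were Dcx, Tubb3, Stmn2, Nhlh1, Nhlh2, Cntn2, Gap43, Nrcam and Astn1, taken as the rows of the 10 count tables that carry one of these symbols. They are 9 of the 50559 genes counted. Reads were counted for all 9 in every library, between 6 and 6239 per gene and library, and all 9 passed the filter on low counts.

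Granule cell precursors (GCPs) divide in the external granule layer of the postnatal cerebellum, leave the cell cycle, extend axons and then move inward along the fibers of Bergmann glia to become mature granule neurons. The members are genes used as markers of the interval between division and maturation. They encode proteins of the microtubule skeleton, transcription factors of newly postmitotic neurons, cell surface molecules of migration and axon contact, and a protein of the growth cone. Most of them are also used by other young or axon-bearing neurons, so their RNA in whole tissue does not come from granule neurons alone.

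The 4 MYC/SMARCA4 tumors grew after transplantation into the cerebellum of CD1nu/nu mice, an immunodeficient strain, and were labelled with ages of 79 to 112 days. The transplanted cells were GCPs of Math1-creERT2::Smarca4fl/fl pups given 0.4 mg tamoxifen at P3, so that Smarca4 was deleted in the Math1 lineage, and were transduced with a lentivirus that drives murine Myc and GFP. They were not sorted for deletion or transduction. The 3 SHH MB came from Math1-cre::Smofl/wt mice, which the study used as an established model of Sonic Hedgehog (SHH) MB. In these mice a floxed Smo allele recombines in the Math1 lineage and Smarca4 is not targeted. The SHH MB were labelled as 7 days old. The 3 P7 cerebella were whole cerebella of Math1-creERT2::Smarca4fl/fl pups that had received the same 0.4 mg tamoxifen at P3, so these controls also carried the Smarca4 deletion in part of their granule cell lineage. All RNA came from formalin-fixed paraffin-embedded tissue.

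The promoters of the 3 members with the largest differences are shown because Nhlh1 and Nhlh2 encode basic helix-loop-helix (bHLH) factors, a class that binds CANNTG, and because Dcx differs from them in lacking this motif. Each window runs from 250 bases before to 50 bases after a RefSeq transcript start and is written 5′ to 3′ on the strand of the gene, with CANNTG in capitals. The windows lie at chr1:171885114-171885413 (minus strand) for Nhlh1, chr3:101917211-101917510 (plus strand) for Nhlh2 and chrX:142716166-142716465 (minus strand) for Dcx in GRCm39, where each had 1 exact match. Dcx has a 2nd window in the table, which also holds no CANNTG.
Nhlh1: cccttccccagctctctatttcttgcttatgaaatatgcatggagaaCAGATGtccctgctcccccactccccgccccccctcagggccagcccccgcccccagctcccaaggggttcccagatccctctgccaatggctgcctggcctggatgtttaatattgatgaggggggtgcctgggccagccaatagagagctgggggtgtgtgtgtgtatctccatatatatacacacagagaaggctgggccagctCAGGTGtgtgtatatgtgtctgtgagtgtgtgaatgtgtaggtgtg
Nhlh2: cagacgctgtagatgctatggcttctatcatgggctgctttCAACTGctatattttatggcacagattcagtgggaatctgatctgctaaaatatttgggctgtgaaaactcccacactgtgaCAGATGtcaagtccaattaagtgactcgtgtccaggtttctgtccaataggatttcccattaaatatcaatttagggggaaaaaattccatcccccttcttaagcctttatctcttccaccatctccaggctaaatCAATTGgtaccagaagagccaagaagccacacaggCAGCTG
Dcx: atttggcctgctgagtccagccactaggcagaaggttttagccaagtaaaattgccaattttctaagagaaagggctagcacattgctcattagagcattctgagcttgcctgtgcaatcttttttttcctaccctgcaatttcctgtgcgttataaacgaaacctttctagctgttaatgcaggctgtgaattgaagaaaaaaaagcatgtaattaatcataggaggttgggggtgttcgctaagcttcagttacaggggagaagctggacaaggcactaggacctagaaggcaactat

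CANNTG, which reads the same on both strands, was found in 5 of the 7 members with a promoter in the RefSeq table (Nhlh1, Nhlh2, Cntn2, Nrcam and Astn1) and in 72.1% of the 27025 promoter windows of that table. Its forms differed between the members. CAGATG, searched on both strands, was present in Nhlh1 and Nhlh2 and in 17.2% of all windows. CAGCTG was present in Nhlh2 and Astn1 and in 16.1% of all windows. CACGTG, the form to which MYC with its partner MAX binds best, was in none of the 7 and in 7.24% of all windows. CCAAT stood in Dcx, Tubb3, Nhlh1 and Nhlh2 (37.9% of all windows), and TATAAA in Dcx alone of the 7 (14.2% of all windows). These matches describe the windows only.

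Total counts were 5663491 to 9352109 per library. The tumors varied far more among themselves than the other groups, and tumors 1 and 3 stood apart. Tumor 1 had a summed level of 16 proliferation genes of 164 normalized CPM (counts scaled to the effective size of the library), against 2125 to 2387 in the other 3 tumors, and only 2 counts of Atoh1, a transcription factor of GCPs. Tumor 3 had the lowest summed levels among the tumors for markers of every cell type listed below except choroid plexus. Myc ranged from 151 to 1574 normalized CPM in the tumors and from 12.9 to 14.2 in P7 cerebella, while Smarca4 was at 135 to 242 in the tumors and 219.5 to 279.7 in P7 cerebella. The Smarca4 count covers the whole gene and both groups carried the floxed alleles, so it does not check the deletion. Smarca4 did not pass against P7 cerebella (-0.30 ± 0.28, adjusted p = 0.495). It was lower than in SHH MB (-1.39 ± 0.28, adjusted p = 0.0157). That call was lost with the replicate number as a block and in at least 1 fit that left out a single library. Myc was higher than in SHH MB (4.31 ± 0.69, adjusted p = 0.00428). Atoh1 was at 97.0 to 138 normalized CPM in SHH MB and 17.2 to 29.5 in P7 cerebella. The shares of mitochondrial and rRNA-like genes, which may bear on RNA quality, also set the tumors apart. RNA integrity values are not given in the sources used here. Mitochondrial genes took 6.36% of the counts in tumor 1, 2.29% to 2.94% in the other tumors and 1.25% to 1.59% in P7 cerebella and SHH MB. Lars2 with rRNA-like genes took 2.23% to 3.82% in the tumors and 0.751% to 1.59% in the other libraries. The part of these shares in the results was not tested. Where tumor 1 or 3 changes the call of a member, its value without that tumor is given.

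Most members were below P7 cerebella in MYC/SMARCA4 tumors, and those with the largest differences were also lower than in SHH MB. Dcx, Nhlh1 and Nhlh2 fell in both comparisons, by 7.81-fold to 17.8-fold. Tubb3 and Astn1 fell less in both, by 2.12-fold to 3.45-fold. Stmn2, Cntn2, Gap43 and Nrcam were spread widely over the tumors and did not pass the test in either. In whole tissue, fewer cells that express a gene and less RNA of it per cell cannot be told apart. The tumors were labelled as 79 to 112 days old and all P7 cerebella and SHH MB as 7 days. Age and transplantation therefore cannot be told apart from tumor type in either comparison of the tumors. The plot of normalized CPM by library shows all values.

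**Figure D1:**
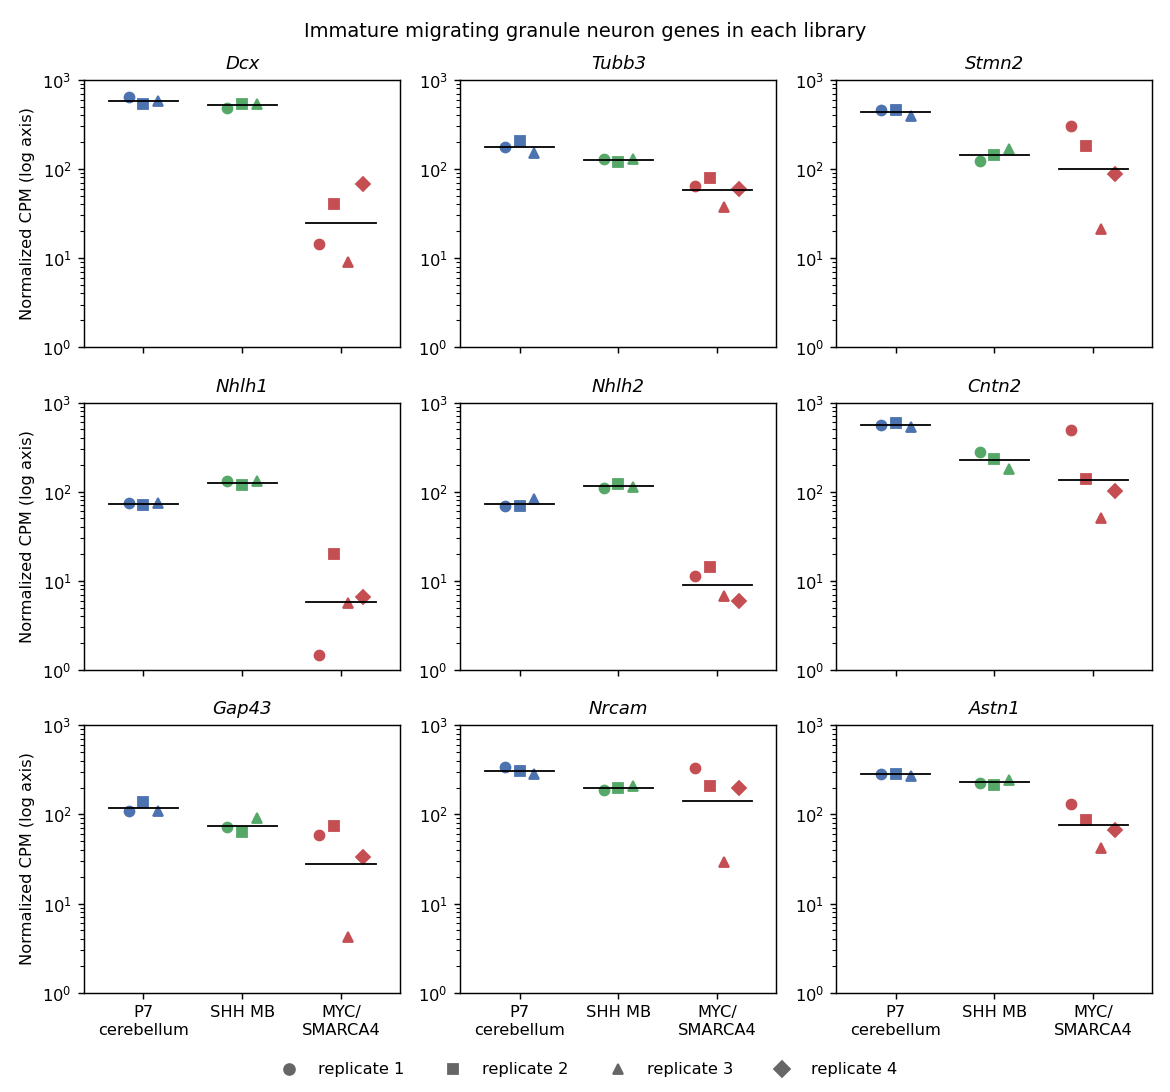
Normalized CPM (log axis) of the 9 members in each library of P7 cerebellum, SHH MB and MYC/SMARCA4 tumors, with 1 marker per library and a line at the geometric mean of the group. The 4 tumors lie below all other libraries for Dcx, Tubb3, Nhlh1, Nhlh2 and Astn1, lie on both sides of SHH MB for Stmn2 and Cntn2, and include at least 1 within the range of SHH MB for Gap43 and Nrcam.

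Of the microtubule genes, Dcx encodes doublecortin, which stabilizes microtubules in migrating neurons (chromosome X, 142638838 to 142716307, minus strand, GRCm39). Its normalized CPM was 14.5, 40.3, 9.02 and 67.0 in tumors 1 to 4, 632, 533 and 584 in P7 cerebella 1 to 3, and 487, 533 and 535 in SHH MB 1 to 3. The highest tumor was therefore far below the lowest library of either other group, while P7 cerebella and SHH MB overlapped. Dcx was 17.8-fold lower in the tumors than in P7 cerebella (log2 fold change -4.15 ± 0.56 SE, adjusted p = 0.00270) and 15.8-fold lower than in SHH MB (-3.98 ± 0.56, adjusted p = 0.00192). The size rested in part on single tumors: it was -4.83 and -4.65 without tumor 4, and -3.40 and -3.24 without tumors 1 and 3 together, and it passed in each. Each tumor had between 1.55% (tumor 3) and 11.5% (tumor 4) of the P7 mean.

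Tubb3 encodes the class III beta-tubulin of neurons (chromosome 8, 124138163 to 124150092, plus strand). It was measured at 63.4, 78.5, 37.6 and 59.4 normalized CPM in tumors 1 to 4, at 175, 203 and 150.1 in P7 cerebella and at 129.7, 120 and 130.1 in SHH MB. No tumor reached either other group, and the tumors were closer together than for any other member, with a range of 1.06 on the log2 CPM scale. Tubb3 was 2.95-fold lower than in P7 cerebella (-1.56 ± 0.27, adjusted p = 0.01002) and 2.12-fold lower than in SHH MB (-1.09 ± 0.27, adjusted p = 0.0406). The coding sequences of the beta-tubulin genes are alike, and how reads matching several genes were counted is not given in the sources used here. The call against SHH MB was lost in 7 of 20 alternative settings, among them leaving out any 1 SHH MB library and fitting only these 2 groups (adjusted p = 0.1002).

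Stmn2, a stathmin of growth cones that binds tubulin (chromosome 3, 8574151 to 8626667, plus strand), spread widely over the tumors. Its normalized CPM was 303, 181, 21.4 and 87.1 in tumors 1 to 4, 454, 459.8 and 390.5 in P7 cerebella, and 122, 141 and 167 in SHH MB. All 4 tumors were below P7 cerebella, but tumors 1 and 2 were above all SHH MB and tumors 3 and 4 below them. The fit gave -1.56 ± 0.59 against P7 cerebella (adjusted p = 0.127) and 0.04 ± 0.59 against SHH MB (adjusted p = 0.977). The sign against SHH MB had no hold: the mean log2 CPM was lower in the tumors (6.66 against 7.16), and limma on the deposited log2 values gave -0.46. Without tumor 1, Stmn2 passed against P7 cerebella (-2.29, adjusted p = 0.0103), as it did without tumor 3 (-1.39, adjusted p = 0.0125).

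Nhlh1 and Nhlh2, whose promoters are printed above, encode a pair of closely related bHLH transcription factors that are switched on as neurons become postmitotic. Nhlh1 (chromosome 1, 171879859 to 171885140, minus strand) was measured at 1.47, 19.99, 5.69 and 6.65 normalized CPM in tumors 1 to 4, at 74.5, 70.04 and 75.4 in P7 cerebella and at 131, 117 and 131 in SHH MB. Tumor 1 stood lowest with 6 counts, above the floor of 3 counts, and tumor 2 highest with 112 counts. Nhlh1 was 8.61-fold lower in the tumors than in P7 cerebella (-3.11 ± 0.55, adjusted p = 0.00986) and 14.8-fold lower than in SHH MB (-3.89 ± 0.56, adjusted p = 0.00211). Without tumor 2 the differences were -3.94 and -4.72. The call against P7 cerebella was lost when only those 2 groups were fitted (adjusted p = 0.0657) and without P7 cerebellum 2 or 3.

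Nhlh2 (chromosome 3, 101917392 to 101922808, plus strand) was at 11.3, 14.1, 6.66 and 5.93 normalized CPM in tumors 1 to 4, at 69.4, 69.6 and 81.9 in P7 cerebella and at 109.8, 121 and 112 in SHH MB. It separated the tumors from the other groups with the smallest p of the members in both comparisons, at 7.81-fold lower than P7 cerebella (-2.97 ± 0.31, adjusted p = 0.000561) and 12.1-fold lower than SHH MB (-3.60 ± 0.32, adjusted p = 6.58e-05). All 3 groups were apart for both genes, in the order SHH MB, P7 cerebella, tumors. Unlike the other members, Nhlh1 and Nhlh2 were thus highest in SHH MB, although the step from P7 cerebella to SHH MB did not pass the test. Both kept the sign and the call without tumor 1, without tumor 3 and without both.

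Of the surface molecules, Cntn2 encodes an immunoglobulin-type contactin of young granule neurons and their axons (chromosome 1, 132437165 to 132470994, minus strand). Its normalized CPM was 489, 138, 50.7 and 102 in tumors 1 to 4, 554, 592 and 525 in P7 cerebella and 280.3, 231 and 179 in SHH MB. Tumor 1 was near P7 cerebella, and the other 3 tumors were below all SHH MB. The fit gave -1.52 ± 0.58 against P7 cerebella (adjusted p = 0.127) and -0.24 ± 0.58 against SHH MB (adjusted p = 0.852). Without tumor 1, Cntn2 passed in both, with -2.63 against P7 cerebella (adjusted p = 0.000267) and -1.37 against SHH MB (adjusted p = 0.0127). Without tumor 3 it passed against P7 cerebella (-1.44, adjusted p = 0.0274) and not against SHH MB (-0.15, adjusted p = 0.813).

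Nrcam encodes an adhesion molecule of the L1 family (chromosome 12, 44375287 to 44651976, plus strand). It was at 332, 207, 28.9 and 196 normalized CPM in tumors 1 to 4, at 342, 310.5 and 283 in P7 cerebella and at 186, 197.5 and 210 in SHH MB. Tumor 3 alone stood far below, tumor 1 lay within the P7 range, and tumors 2 and 4 within the SHH MB range. Nrcam did not pass against P7 cerebella (-0.71 ± 0.53, adjusted p = 0.397) or SHH MB (-0.05 ± 0.53, adjusted p = 0.969), where its sign turned without tumor 3 (0.13). It shares 126 exon bases with Gm59406 on the opposite strand in GENCODE, and the strand setting of the counting is not given in the sources used here.

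Astn1 encodes astrotactin 1, a neuronal surface protein of glial-guided migration (chromosome 1, 158189721 to 158519355, plus strand). It was measured at 129.7, 86.9, 41.9 and 67.6 normalized CPM in tumors 1 to 4, at 285, 286 and 272 in P7 cerebella and at 226, 215 and 244 in SHH MB. The 3 groups did not overlap. Astn1 was 3.45-fold lower in the tumors than in P7 cerebella (-1.79 ± 0.33, adjusted p = 0.0127) and 2.81-fold lower than in SHH MB (-1.49 ± 0.33, adjusted p = 0.0248). Without tumor 1 the difference from P7 cerebella was -2.20 (adjusted p = 0.000176). The call against SHH MB was lost in 6 of 20 alternative settings, among them leaving out tumor 2, leaving out any 1 SHH MB library (adjusted p up to 0.145) and fitting only those 2 groups (adjusted p = 0.0787).

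Gap43 encodes a membrane protein of axonal growth cones (chromosome 16, 42068805 to 42161086, minus strand). Its normalized CPM was 59.0, 74.4, 4.16 and 33.4 in tumors 1 to 4, 110.2, 137 and 108.5 in P7 cerebella and 71.9, 63.9 and 91.7 in SHH MB. All tumors were below P7 cerebella, and tumor 2 lay within the SHH MB range. The fit gave -1.48 ± 0.60 against P7 cerebella (adjusted p = 0.1496) and -0.83 ± 0.60 against SHH MB (adjusted p = 0.475). Without tumor 3, the library with 30 counts, the difference from P7 cerebella was -1.25 and passed (adjusted p = 0.0119).

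Together, 5 of the 9 members passed as lower against P7 cerebella and none as higher, where 2.27% of the 29952 genes tested passed as lower and 3.99% as higher. Their median log2 fold change was -1.56, beside -0.05 over all genes tested. Against SHH MB 5 of 9 again passed as lower and none as higher, with 2.26% of all genes passing as lower and 2.43% as higher, and the median was -1.09 beside 0.0081 over all genes. Both comparisons use the same 4 tumors and are not independent. With the stricter limits of the study, which ask for 2.5 on the log2 scale together with an adjusted p no greater than 0.01, Dcx, Nhlh1 and Nhlh2 remained lower in each, against 0.200% of all genes for P7 cerebella and 0.477% for SHH MB.

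Without overlap between the libraries, 8 of 9 members were below P7 cerebella (10.7% of all genes) and 5 of 9 below SHH MB (8.30% of all genes). Exact two-sided permutation tests of the mean log2 CPM gave 0.0571 for each of these, the smallest p that 4 against 3 libraries allow, so single members cannot reach 0.05 by that test. DESeq2 and limma on the deposited log2 values each called the same 5 members lower against P7 cerebella. Against SHH MB DESeq2 called 5 and limma 4, without Tubb3. Leaving out tumor 1 gave 7 members lower against P7 cerebella, leaving out tumor 3 gave 8 and leaving out both, a setting added after the data were seen, gave 9. The share of all genes called lower rose at the same time, to 6.11%, 22.8% and 23.0%.

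**Figure D2:**
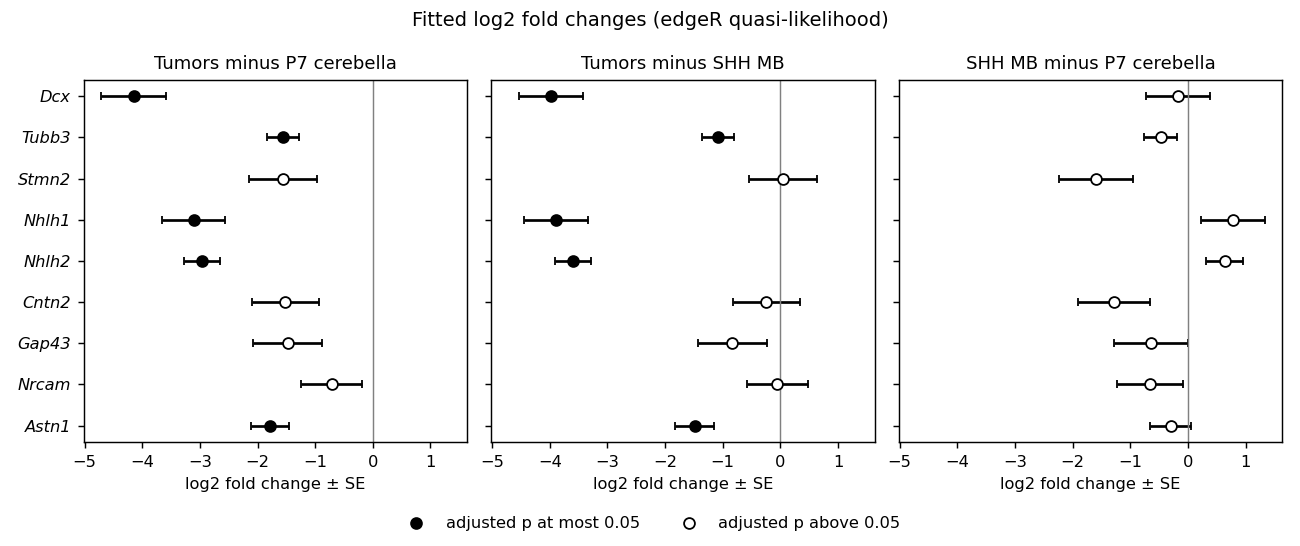
Log2 fold change with its standard error for each member in the 3 comparisons (edgeR quasi-likelihood fit of all 10 libraries), with filled points for an adjusted p of at most 0.05. Filled points are Dcx, Tubb3, Nhlh1, Nhlh2 and Astn1 in both comparisons of the tumors, and none in the comparison of SHH MB with P7 cerebella.

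SHH MB and P7 cerebella, neither of which received the Myc virus, were compared in the same way. In the fit of all 10 libraries 0 of 9 members passed in either direction (edgeR), beside 0.0467% of all genes lower and 0.177% higher in SHH MB. At an unadjusted p under 0.05 there was 1 member, Stmn2 (-1.60 ± 0.65, adjusted p = 0.492), and DESeq2 and limma also called 0. The differences of Stmn2, Cntn2 (-1.28) and Nrcam (-0.66) were close in size to those between the tumors and P7 cerebella, while that of Dcx was -0.17. The libraries nevertheless did not overlap for 8 members. Tubb3, Stmn2, Cntn2, Gap43, Nrcam and Astn1 were all below P7 cerebella in SHH MB (19.0% of all genes were), and Nhlh1 and Nhlh2 all above (17.8% of all genes were). With 3 against 3 libraries the smallest exact p is 0.1.

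That fit shares 1 estimate of the spread, to which the tumors contribute most: the common dispersion was 0.178 with all libraries and 0.0264 with SHH MB and P7 cerebella alone. Fitted alone, 5 members passed as lower in SHH MB and 2 as higher, with 10.3% and 13.4% of all genes. Nhlh1 was then higher by 0.81 (adjusted p = 4.54e-06) and Nhlh2 by 0.66 (adjusted p = 0.000107). Stmn2 was lower (-1.58, adjusted p = 3.37e-10), as were Cntn2 (-1.25, adjusted p = 5.50e-08), Nrcam, Gap43 and Tubb3. Dcx at -0.15 (adjusted p = 0.415) and Astn1 at -0.28 (adjusted p = 0.0789) did not pass. This comparison shares its libraries with both comparisons of the tumors.

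Most members, though not all, had nearly the same order over the tumors. Stmn2, Cntn2, Nrcam and Astn1 shared the order of tumors 1, 2, 4 and 3 from high to low, and Tubb3 and Gap43 differed from it only in that tumor 2 stood above tumor 1. Dcx, Nhlh1 and Nhlh2 departed from this order. Tumor 3 held the lowest value for 7 of 9, tumor 1 for Nhlh1 and tumor 4 for Nhlh2. Tumor 1 held the highest value for Stmn2, Cntn2, Nrcam and Astn1, tumor 2 for Tubb3, Nhlh1, Nhlh2 and Gap43, and tumor 4 for Dcx. Tumor 1 therefore combined 106% of the P7 mean for Nrcam and 87.8% for Cntn2 with 2.49% for Dcx and 2.01% for Nhlh1. In tumor 3 the members ranged from 1.55% for Dcx to 21.4% for Tubb3. The median over the members was 46.2%, 30.9%, 9.05% and 20.03% of the P7 mean in tumors 1 to 4. By their mean log2 CPM over the 9 members, the tumors lay at 5.85, 6.09, 4.04 and 5.48, P7 cerebella at 7.74 to 7.84 and SHH MB at 7.35 to 7.44.

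**Figure D3:**
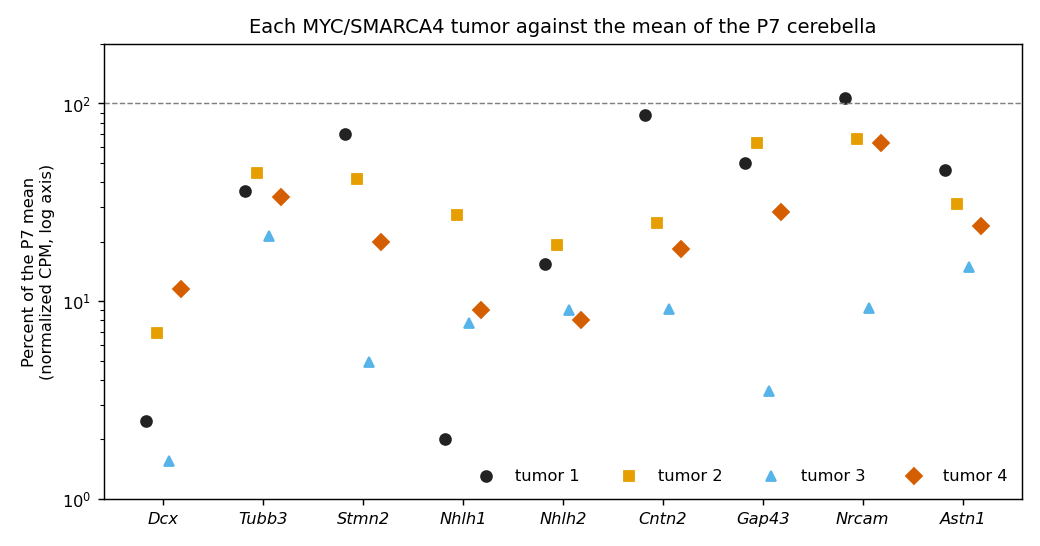
Normalized CPM of each member in each MYC/SMARCA4 tumor as a percent of the mean of the 3 P7 cerebella (log axis, dashed line at 100%). Tumor 1 ranges from 2.01% for Nhlh1 to 106% for Nrcam, and tumor 3 lies at or below 21.4% for all members.

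The summed levels of most lists of cell markers had the same highest and lowest tumor as Stmn2, Cntn2, Nrcam and Astn1. The summed normalized CPM of 13 mature granule neuron markers was 10370, 3884, 663 and 2368 in tumors 1 to 4, 2013 to 2372 in P7 cerebella and 1110.0 to 1196 in SHH MB. The sum over 12 Purkinje cell markers was 15170, 4124, 715 and 2883 in the tumors, 2567 to 2949 in P7 cerebella and 1195 to 1619 in SHH MB. The sum over 14 oligodendrocyte lineage and myelin markers was 4070, 1004, 239 and 562 in the tumors, 1192 to 1384 in P7 cerebella and 535 to 783 in SHH MB. Tumor 1 was thus highest for these 3 lists, and tumor 3 was lowest. The same held among the tumors for GCP markers, whose sums are given below. It also held for markers of the GABAergic interneuron lineage (1995, 466, 97.7 and 364 in tumors 1 to 4), microglia (217, 121, 57.3 and 152) and endothelium (416, 187, 109 and 160). Markers of astrocytes, choroid plexus and erythrocytes did not follow this pattern. The sum over 6 erythrocyte markers was 160, 194, 31.5 and 64.5 in tumors 1 to 4. The sum over 12 astrocyte and Bergmann glia markers was 1180, 3057, 618 and 2378 in tumors 1 to 4 and 2243 to 2777 in the other libraries, and 5 of the 12 passed as lower against P7 cerebella. The sum over 8 choroid plexus markers was 35.4, 127, 134 and 30.0 in the tumors and 326 to 1323 in the other libraries. Of these markers 3 passed as lower in each comparison of the tumors, and 1 to 7 when 1 library was left out. The highest count in each was without tumor 3, where 22.8% and 13.9% of all genes were lower. The largest difference was that of Ttr, the transthyretin gene (-8.91 against P7 cerebella and -8.94 against SHH MB). No gene of these lists was at 0 in all libraries.

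As single genes, 4 of the 13 mature granule neuron markers passed as higher against P7 cerebella and 7 against SHH MB, and none as lower. These counts rested on single libraries, as did the share of all genes called higher (3.99% and 2.43% with all libraries). Leaving out 1 library gave 0 to 9 higher against P7 cerebella. The ends were without any 1 P7 cerebellum (0.109% to 0.264% of all genes higher) and without tumor 3 (11.8%). Against SHH MB it gave 2 (without SHH MB 3, 0.166%) to 12 (without tumor 3, 9.57%). Without tumor 1 there were 2 and 1 lower, beside 6.11% and 4.75% of all genes. With all libraries Cbln3, a cerebellin of granule neurons, and Gabra6, the GABA-A receptor subunit alpha 6, were higher than in P7 cerebella (4.28 ± 0.95 and 3.41 ± 0.80, adjusted p = 0.0239 and 0.0278). None of the Purkinje cell markers passed against P7 cerebella, and 2 of 12 passed as higher against SHH MB (8 without tumor 3, where 9.57% of all genes did). Without tumor 1, 3 of them passed as lower against P7 cerebella (6.11% of all genes). Of the 14 oligodendrocyte lineage and myelin markers, 2 passed as lower against P7 cerebella (Olig2 at -1.755 and Cspg4 at -1.02). Against SHH MB 3 passed as lower (Olig2, Olig1 and Cspg4), and 0 passed as higher in either comparison. With all libraries, 2.27% and 2.26% of all genes were lower in these comparisons. Leaving out 1 library gave up to 6 lower against P7 cerebella (without tumor 1, 6.11% of all genes). It gave up to 6 higher against SHH MB (without tumor 3, 9.57% of all genes). The sum over 13 GCP markers was 1851, 1641, 953 and 1375 in tumors 1 to 4, 2109 to 2195 in P7 cerebella and 3975 to 4731 in SHH MB. Of these markers 3 passed as lower against P7 cerebella (Barhl1, Sfrp1 and Mycn), and 6 passed as lower against SHH MB and 1 as higher. Leaving out 1 library gave 3 to 11 lower against SHH MB. The ends were without SHH MB 3 (0.789% of all genes lower) and without tumor 1 (4.75%). The part of these cell types in the members' levels was not tested.

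**Figure D4:**
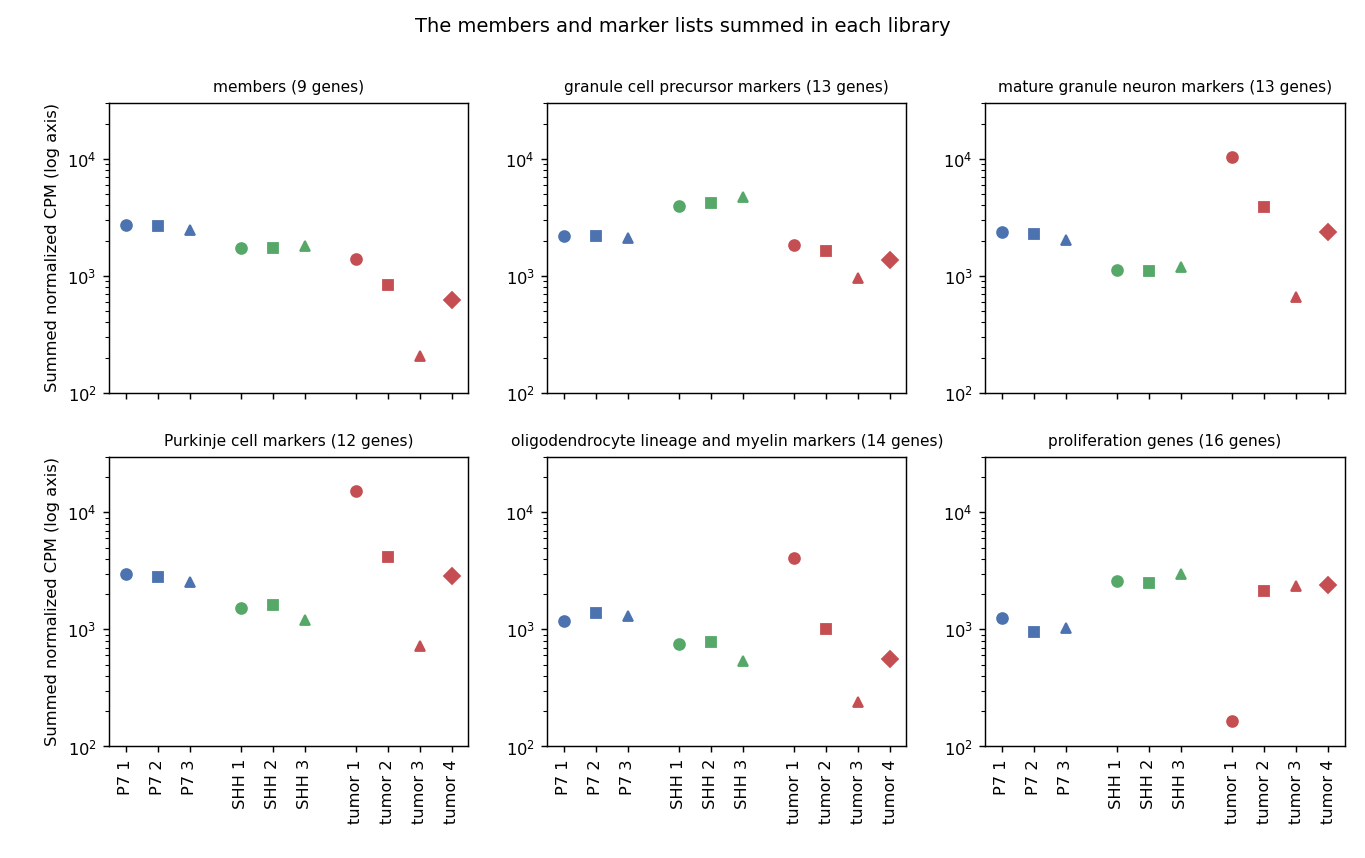
Summed normalized CPM (log axis) of the 9 members and of 5 lists of markers in each library, with 1 marker per library. Tumor 1 is highest of all libraries for mature granule neuron, Purkinje cell and oligodendrocyte markers and lowest for proliferation genes (164). Among the tumors it is also highest for the members and for GCP markers. Tumor 3 is lowest of the tumors for the members (206) and for the other lists except proliferation genes.

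Genes that work with the members were followed in lists by role. Of 27 further microtubule genes of young neurons, 8 passed as lower and 0 as higher against P7 cerebella (median -0.64), and 2 as lower against SHH MB (median -0.40). With all libraries, 2.27% and 2.26% of all genes were lower in these comparisons. Leaving out 1 library gave 0 to 14 lower against P7 cerebella. The ends were without P7 cerebellum 3 (0.505% of all genes lower) and without tumor 1 (6.11%). Against SHH MB it gave 0 (without any 1 SHH MB, 0.789% to 0.969%) to 7 (without tumor 1, 4.75%). Without tumor 3 there were 2 and 5 higher, beside 11.8% and 9.57% of all genes. Dpysl5, a collapsin response mediator that acts on tubulin, was lower in both (-1.95 ± 0.35, adjusted p = 0.0110, and -1.66 ± 0.35, adjusted p = 0.0185). So was Tubb2b, a beta-tubulin of migrating neurons (-2.502 ± 0.51, adjusted p = 0.0181, and -2.21 ± 0.51, adjusted p = 0.0285). Dpysl3, of the same family as Dpysl5, and Map6, which protects microtubules from cold, were lower against P7 cerebella (-2.65 ± 0.57 and -1.44 ± 0.31). The remaining 4 lower than in P7 cerebella were Cdk5r1, Stmn1, Tuba1a and Tubb2a.

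Of 22 growth cone and guidance genes, 2 passed as lower against P7 cerebella and 4 against SHH MB, with 0 higher. Leaving out 1 library gave 0 (without any 1 P7 cerebellum) to 11 (without tumor 1) lower against P7 cerebella and 3 to 9 (without tumor 1) against SHH MB, where 3 were higher without tumor 3. Robo2, a receptor of the repellent SLIT proteins, and Sema6a, a transmembrane semaphorin that governs granule cell migration, were lower in both comparisons, Robo2 by -1.70 ± 0.34 and -2.24 ± 0.35 and Sema6a by -1.50 ± 0.33 and -1.29 ± 0.33. Cxcr4, the receptor that holds GCPs at the meningeal source of its ligand, was at 1.72 to 12.1 normalized CPM in the tumors, 12.2 to 17.3 in P7 cerebella and 102 to 134 in SHH MB. It was lower in the tumors than in SHH MB (-4.35 ± 0.47, adjusted p = 0.000300). In the fit of all 10 libraries Cxcr4 alone of the 4 lists by role passed as higher in SHH MB than in P7 cerebella (2.98 ± 0.49, adjusted p = 0.0329). There, 0.177% of all genes were higher. The call was lost without any 1 P7 cerebellum and without SHH MB 2 or 3, where no gene passed as higher. With only these 2 groups fitted, 8 of the 22 genes passed as higher, beside 13.4% of all genes. The netrin receptor gene Dcc was lower in the tumors than in SHH MB (-4.45 ± 0.81, adjusted p = 0.00897). It did not pass between the tumors and P7 cerebella (-2.39 ± 0.76, adjusted p = 0.0774).

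Of 23 adhesion genes of migration and axons, 2 passed as lower against P7 cerebella and 0 in either direction against SHH MB (edgeR), where the median was 0.44. Without tumor 1, 7 were lower against P7 cerebella (6.11% of all genes), and without tumor 3, 5 were higher against SHH MB (9.57%). The 2 were Nrg1, a neuregulin that signals to ERBB receptors of glia (-1.83 ± 0.31, adjusted p = 0.00900), and Cntn5, a contactin (-1.47 ± 0.34, adjusted p = 0.0254). Of 19 neuronal bHLH, SOX and RNA-binding factors, Neurog1 alone passed against P7 cerebella, as lower (-2.90 ± 0.70, adjusted p = 0.0316), at under 4 normalized CPM in the mean of every group. Leaving out 1 library gave 0 to 5 lower and 0 to 3 higher, the highest of each without tumor 1 (6.11% and 9.64% of all genes). Neurod1, the bHLH factor that drives granule neuron differentiation, did not pass against P7 cerebella (-0.48 ± 0.42, adjusted p = 0.465) or SHH MB (0.79 ± 0.43, adjusted p = 0.338). Its mean log2 CPM was 7.94 in the tumors, 8.65 in P7 cerebella and 7.39 in SHH MB. Neurod2 was lower in SHH MB than in P7 cerebella (-2.24 ± 0.39, adjusted p = 0.0402), where 0.0467% of all genes were lower. This call was lost without any 1 P7 cerebellum or any 1 SHH MB library, where no gene passed as lower.

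Per length, the members differed in abundance. In normalized CPM per kilobase of exon, P7 cerebella had 75.2 ± 6.66 (SD, n = 3) of Stmn2, 62.5 ± 8.37 of Gap43, 57.5 ± 3.46 of Cntn2 and 54.8 ± 8.23 of Tubb3. These were followed by Dcx at 46.1 ± 3.91, Nhlh1 at 29.8 ± 1.16, Astn1 at 26.5 ± 0.73, Nrcam at 16.3 ± 1.54 and Nhlh2 at 13.6 ± 1.32. From Stmn2 to Dcx the ranges of mean ± SD of neighbors in this order overlapped. In SHH MB Nhlh1 came first with 51.2 ± 3.15. Dcx with 40.98 ± 2.12, Gap43 with 39.98 ± 7.54 and Tubb3 with 39.45 ± 1.79 followed with overlapping ranges, and Nhlh2 with 21.1 ± 1.14 stood above Nrcam with 10.3 ± 0.63. In the tumors Stmn2 was first with 25.6 ± 21.2 (SD, n = 4). Its range overlapped those of Gap43 with 22.5 ± 16.2, Cntn2 with 20.15 ± 20.6 and Tubb3 with 18.6 ± 5.26. Dcx with 2.59 ± 2.106 and Nhlh2 with 1.75 ± 0.72 were at the bottom, beside Nhlh1 with 3.43 ± 3.25. Lengths are those of all exons in GENCODE, and a transcript used in part would shift these levels.

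Likeness of profiles was described by the root mean square difference of centered log2 CPM over the 10 libraries. Among the 36 pairs of members, Tubb3 and Astn1 were closest (0.32) and Stmn2 and Nhlh1 farthest apart (2.07). Dcx, Nhlh1 and Nhlh2 lay within 0.87 to 1.02 of each other. Of 13201 genes searched, Aldh1l1, a folate enzyme used as an astrocyte marker, was nearest to the mean profile of the members (0.18), followed by Sdc3, Irx1, Gm31409 and Rnd2 (0.20 to 0.29). The nearest gene to Dcx was Fabp7, the lipid-binding protein of Bergmann and radial glia (0.40). Both fell in the tumors relative to P7 cerebella (-2.22 ± 0.36 and -4.14 ± 0.72, adjusted p = 0.00665 and 0.00943). Nearest genes of further members were Ppp2r2b (Tubb3, 0.19), Chl1 (Stmn2, 0.25), Mfap4 (Nhlh1, 0.48), Col9a3 (Nhlh2, 0.38), Actl6b (Cntn2, 0.24), Lrrc4b (Gap43, 0.25) and Vopp1 (Astn1, 0.20).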

How the data were processed

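RNA of FFPE tissue was depleted of ribosomal RNA and made into libraries with the CORALL kit by the authors, who trimmed reads with Trimmomatic 0.38.1, aligned them to GRCm39 with STAR 2.7.8a and counted them with featureCounts 2.0.1. The count tables deposited by the authors hold unnormalized whole numbers. A deposited table of log2-scale values, made by the authors with the variance-stabilizing transformation of DESeq2 2.11.40.7, holds 46123 genes and was used for limma only. The gene annotation and the strand setting of the counting are not given in the sources used here.

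These counts entered a quasi-likelihood fit in edgeR 4.0.16 (R 4.3.3, TMM factors, filterByExpr by group, non-robust, a mean per group, all 10 libraries). P-values of 29952 genes were adjusted by the Benjamini-Hochberg method, and a gene passed at an adjusted p of at most 0.05. Fold changes carry a standard error from the F statistic. Log2 CPM used a prior count of 2. The code was tested on simulated data. DESeq2 1.42.0 and limma 3.58.1 were alternatives. The floor of 3 counts was 0.304 to 0.737 normalized CPM, for counting error only. Nothing states that libraries of a group came from separate litters, so p-values measure the spread between these samples. Tissue punches were bulk samples of unstated tumor cell content.

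Named were the 9 members, up to 4 genes of lowest p per list and comparison among 217 listed genes, the targeted genes and the genes nearest in profile, of which that of Nrcam is not reported here. The genes Cdk5r1, Stmn1, Tuba1a and Tubb2a were named after their values were seen, to complete a count. The members and lists were chosen with earlier results of these data known. Exon lengths came from GENCODE vM39 and promoters from RefSeq, placed on GRCm39 by exact match. Exact permutation tests used scipy 1.17.1.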

Additional observations from a re-analysis of the deposited data

How the results depend on the processing

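The 5 members lower against P7 cerebella became 3 at log2 limits of 2.5 or 1.5 with an adjusted p of at most 0.01, and 9 without tumors 1 and 3 together (a setting added after the data were seen). Leaving out 1 library gave 4 to 8, the highest without tumor 3 (22.8% of all genes lower). The median over these settings was -2.29 to -1.53, the largest without tumor 1. Against SHH MB the 5 became 3 at both limits and 3 when only the 2 groups were fitted (1.15% of all genes lower). Leaving out 1 library gave 3 to 6. There were 3 whenever 1 SHH MB library was absent (0.789% to 0.969% of all genes) and 6 without tumor 1 (4.75%). Between SHH MB and P7 cerebella, 0 members passed. When only the 2 groups were fitted, 5 were lower and 2 higher, beside 10.3% and 13.4% of all genes. Without tumors 1 and 3, 3 were lower and 2 higher, beside 5.92% and 7.83%. Leaving out 1 library gave 0 to 1 lower. These were Cntn2 without tumor 1 and Stmn2 without tumor 3, where 1.19% and 0.874% of all genes were lower.

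The sign of Stmn2 against SHH MB turned negative with limma on the deposited values (-0.46), with at least 10 counts in every library (-0.25), with the 2 groups alone (-0.031) and without tumors 1 and 3 (-0.078), and ranged from -0.72 to 0.22 when 1 library was left out. That of Nrcam ranged from -0.60 to 0.13, and was 0.053 without tumors 1 and 3. These values never passed the test. Nhlh1 was not tested with at least 10 counts in every library. The cause of these changes was not tested.

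Replicate numbers recur in the labels without a stated pairing, and correlations of same-numbered libraries ran from -0.274 to 0.162, so the numbers were not taken to pair them. With the replicate block, 3 members passed as lower against P7 cerebella (0.688% of all genes) and 3 against SHH MB (1.34%). They were Dcx, Nhlh1 and Nhlh2 in each, so that Tubb3 and Astn1 lost both calls. Between SHH MB and P7 cerebella 0 passed, and Stmn2 was at -0.10 against SHH MB. Of the mature granule neuron markers, 0 were then higher against P7 cerebella and 4 against SHH MB (0.551% and 0.771% of all genes).

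Over all genes, calls moved widely between settings, and the cause was not tested. Across the settings other than the joint removal of tumors 1 and 3, 159 to 6551 genes were lower and 35 to 3381 higher against P7 cerebella (680 and 1194 as reported), 257 to 3979 and 54 to 2750 against SHH MB (676 and 727), and 0 to 2999 and 0 to 3884 between SHH MB and P7 cerebella (14 and 53). Nhlh1 rested on 6 counts in tumor 1. A planned comparison of protein sequences was not run.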
